A study of Sus scrofa with 8 samples.

Results

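Oxidative phosphorylation in heart muscle was followed through the nuclear genes that encode its protein subunits. The genes are those with a probe set, a group of short probes for 1 transcript, whose single gene symbol in the platform annotation begins with NDUF, SDHA, SDHB, SDHC, SDHD, UQCR, COX4, COX5, COX6, COX7, COX8, CYC1 or ATP5. This gave 64 genes of the 6765 that the annotation names, on 82 probe sets, and each gene is represented by its brightest probe set over all 8 arrays. RNA came from left ventricular muscle distant from a myocardial infarct in 8 castrated male Yorkshire pigs under 1 year of age, with 1 Affymetrix porcine array for each pig. After infarction, 3 pigs stayed untreated, 3 received glial growth factor 2 (GGF2, a soluble form of neuregulin-1 that acts on heart muscle through ERBB receptors) at 0.67 mg/kg in each infusion and 2 received 2.0 mg/kg, in both cases for 4 weeks. All groups had an infarct, so the untreated animals are no uninjured controls.

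The inner mitochondrial membrane of a cardiomyocyte holds the respiratory chain. Complex I takes electrons from NADH and complex II from succinate, coenzyme Q carries them to complex III, and cytochrome c carries them on to complex IV, which passes them to oxygen. Complexes I, III and IV pump protons, and complex V, the ATP synthase, uses the return of the protons to make ATP. The heart depends on this supply for contraction and is densely packed with mitochondria. Complexes I, III, IV and V also hold subunits encoded by the mitochondrial genome, whereas all subunits of complex II are encoded in the nucleus.

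By complex, 32 of the genes belong to complex I, 4 to complex II, 2 to complex III, 8 to complex IV and 13 to complex V. NDUFA4 was counted with complex IV, where its protein is now placed, although its symbol is that of a complex I gene. The prefixes also caught 5 genes that encode no subunit of the 5 complexes, namely the assembly factors NDUFAF1, NDUFAF2, NDUFAF3 and SDHAF2, and ATP5S, known as coupling factor B. All 4 complex II subunits were present. Complex III was represented only by the small subunits UQCRB and UQCR10. Genes beginning with COX4 and CYC1, and the subunits encoded in mitochondrial DNA, are not analysed here.

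Correlations between arrays over all probe sets ran from 0.981 to 0.994, and array medians lay between 5.343 and 5.397 on the log2 scale. The labelled tissue was matched by its markers. Of 10 cardiomyocyte markers 8 were measured, all with a mean log2 value of at least 13.18, and their summed level lay at 17.25 to 17.36 in untreated, 17.30 to 17.36 in low-dose and 17.34 to 17.35 in high-dose animals. Markers of other cells varied more. The summed level of 6 fibroblast markers was 12.96 to 13.37, 12.73 to 13.42 and 12.11 to 12.61 in untreated, low-dose and high-dose animals, and that of 6 macrophage markers was 9.49 to 10.08, 9.57 to 10.21 and 8.86 to 8.94. Per gene, 5 of 6 fibroblast markers and 5 of 6 macrophage markers were lower in high-dose than in untreated animals, with median differences of −0.61 and −0.87. The summed level of 7 endothelial markers was 11 to 11.17, 10.70 to 11.25 and 10.50 to 10.91. Per gene, 6 of 7 endothelial markers and 3 of 3 adipocyte markers were lower in high-dose than in untreated animals. Their median differences were −0.39 and −0.30, and 1 marker of each list lay near background. Markers of smooth muscle were lower in 3 of 6 genes, of lymphocytes in 2 of 5 and of erythrocytes in 2 of 3. The dimmest fibroblast marker had a mean of 6.04 and the dimmest macrophage marker one of 4.55, both above the lower quartiles of the arrays. The difference between the 3′ and 5′ actin controls, a measure of RNA degradation, was 4.88 to 5.26 in untreated, 5.48 to 6.04 in low-dose and 4.92 to 5.18 in high-dose animals, so the low-dose animals lay above both other groups. The same difference for GAPDH was 1.09 to 1.65, 1.32 to 1.62 and 1.10 to 1.17 in untreated, low-dose and high-dose animals, and there the low-dose animals lay inside the untreated range.

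Most subunit genes were read by very bright probe sets. Their means over the 8 animals ran from 6.13 (NDUFAF1) to 14.23 (NDUFA4) on the log2 scale of the arrays, and 58 of 64 reached 10, a value that 5.5% of all probe sets reached. The median gene stood at the 98.9th percentile of the array. The 6 genes below 10 were NDUFV3, a small accessory subunit of complex I, and the 5 genes that encode no subunit. Brightness also depends on the probes, so the values of different genes are not set against each other as amounts of RNA. The spread between animals of 1 group was narrow. The median pooled SD was 0.13 log2 units for the 64 genes, against 0.17 for all probe sets and 0.16 for the 1321 probe sets with a mean of at least 10.

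High-dose GGF2 was first compared with no treatment, to ask whether subunit transcripts in the remote muscle differed after infusion. No subunit gene passed limma's test, with Benjamini-Hochberg adjustment over all 23999 probe sets and a threshold of 0.05, and the smallest adjusted p of the 64 was 0.423. None of the other probe sets passed either (0%). Without adjustment 3 of the 64 (4.69%) had a p under 0.05, all higher at the high dose, namely COX6A1, NDUFV3 and SDHB, against 3.61% of all probe sets higher, 4.36% lower and 7.97% in either direction. The fitted difference was above 0 in 46 of 64 genes (71.9%), against 53.3% of all probe sets and 51% of those with a mean of at least 10. Its median was 0.04 log2 units and its range −0.23 to 0.43, beside a median of 0.01 over all probe sets. The 8 cardiomyocyte markers had a median of 0.04 as well. This count leans on single animals, since it was 33 of 64 without the untreated animal numbered 2, 34 with that animal and low-dose animal 1 given a covariate of their own, and 36 without high-dose animal 1. With renewed quantile normalization it was 39 of 64, and with each array centred on its median 48 of 64. In a tissue sample, fewer cells of a type and less RNA per cell cannot be told apart. Fibroblast, macrophage, endothelial and adipocyte markers were mostly lower at the high dose, and their part in these values was not tested.

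The intervals of the differences were narrow for most genes. The median 95% interval reached 0.30 log2 units, or 1.24-fold, to either side of the fitted difference between high-dose and untreated animals. For 54 of 64 genes the whole interval lay within 1.5-fold up or down, and for all 64 within 2-fold. These intervals are those of the brightest probe sets, and dimmer probe sets of some genes differed by more or in the opposite direction. The 10 genes whose intervals passed 1.5-fold were ATP5G2, COX6A1, NDUFAF1, NDUFAF3, NDUFB5, NDUFS3, NDUFS6, NDUFV3, SDHB and SDHD. The plot of differences by gene shows all of these intervals.

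**Figure D1:**
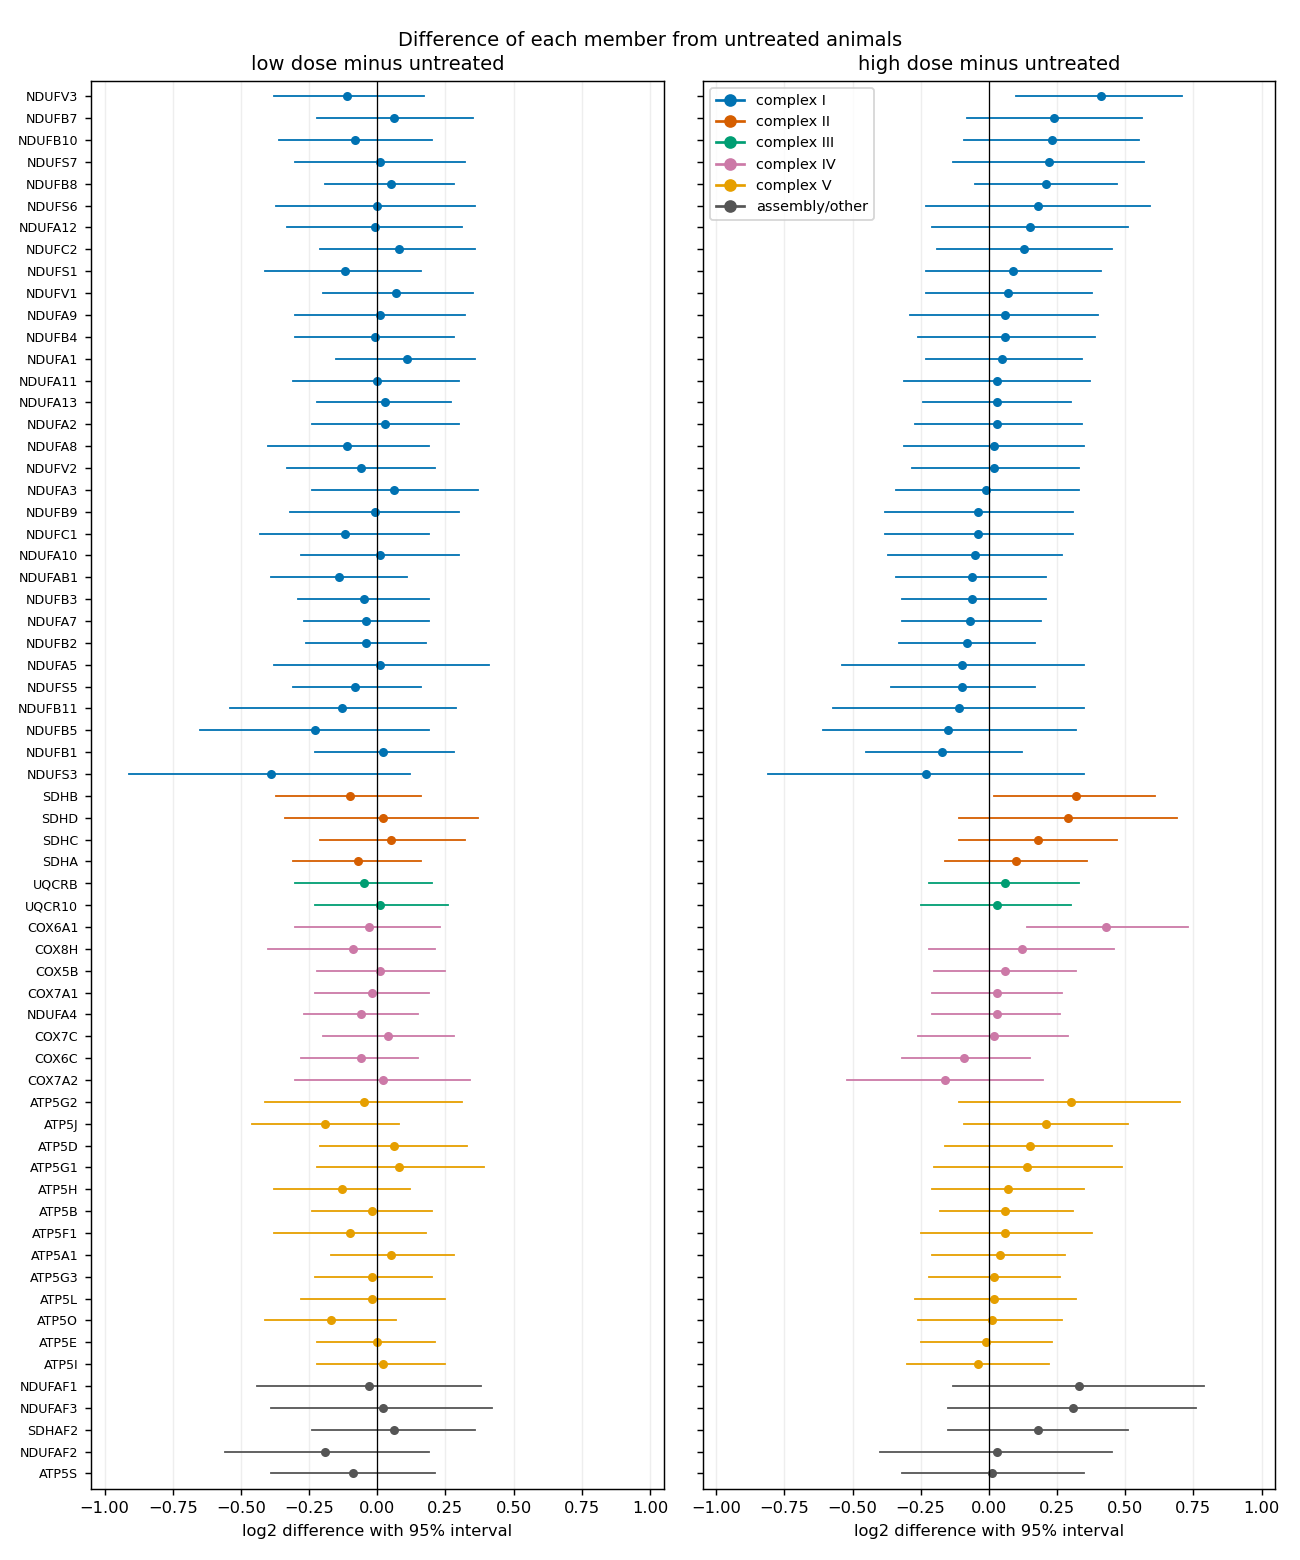
Difference of each of the 64 genes from untreated animals at the low dose (left) and the high dose (right), in log2 units on the horizontal axis, with points for fitted values and lines for 95% intervals, coloured by complex. Most points lie near 0, and only COX6A1, NDUFV3 and SDHB at the high dose have intervals that leave out 0 before adjustment.

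Complex II, succinate dehydrogenase, had the highest median difference of the 5 complexes at the high dose. All 4 subunits were higher, by 0.10 to 0.32 log2 units, with a median of 0.23. SDHB, the iron-sulfur subunit that passes electrons on towards coenzyme Q, measured 12.58 and 12.40 in high-dose animals, against 12.29, 12.16 and 12.07 in untreated animals. Both high-dose values lay above all untreated values, and the fitted difference was 0.32 ± 0.13 (SE, 95% interval 0.02 to 0.61, limma adjusted p = 0.596). SDHD, one of the membrane anchors, measured 12.35 and 12.36 in high-dose animals, against 12.20, 11.96 and 12.05 in untreated animals. These groups did not overlap either, but the interval of the difference ran from −0.11 to 0.69 around 0.29. SDHC, the other anchor, measured 10.99 and 10.82 in high-dose animals, against 10.77, 10.84 and 10.55 in untreated animals. High-dose animal 2 lay inside the untreated range, and the difference was 0.18 (−0.11 to 0.47). SDHA, the flavoprotein subunit that oxidises succinate, measured 12.65 and 12.54 in high-dose animals, against 12.52, 12.40 and 12.56 in untreated animals. Its groups overlapped as well, with a difference of 0.10 (−0.16 to 0.36).

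The low dose left complex II close to untreated animals, with a median difference of −0.03. SDHB measured 12.06, 12.20 and 11.96 in low-dose animals, 0.10 log2 units below untreated animals on average. SDHD measured 11.76, 12.17 and 12.34 in low-dose animals, a range that held all 3 untreated values. Averaged over its 4 genes after each was centred on its mean, complex II stood at 0.23 and 0.12 in high-dose animals, against 0.04, −0.07 and −0.10 in untreated animals. The low-dose averages were −0.15, 0 and −0.07, so both high-dose animals lay above all 6 others. The complex IV averages were 0.05 and 0.05 in high-dose animals, against 0.03, −0.08 and 0.04 in untreated animals. That average includes COX6A1, with a difference of 0.43, whereas the median difference of the 8 complex IV genes was 0.03. COX6A1 was the only complex IV gene with both high-dose values above all untreated values, so the order is not read as a trait of the complex.

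A second probe set exists for SDHA and for SDHB. That of SDHA differed in the same direction as the brighter one but by more, and that of SDHB differed in the opposite direction. The dimmer SDHA probe set, with a mean of 8.19, measured 8.67 and 8.56 in high-dose animals, against 8.32, 7.96 and 7.89 in untreated animals, a difference of 0.56 ± 0.16 (SE, limma adjusted p = 0.417). The dimmer SDHB probe set, with a mean of 8.39, measured 8.10 and 8.39 in high-dose animals, against 8.60, 8.25 and 8.75 in untreated animals, a difference of −0.29 ± 0.23 (SE, limma adjusted p = 0.818). The order of SDHA and SDHB within complex II therefore turned on the probe set. With the mean of each gene's probe sets, SDHB differed by 0.01 and SDHA by 0.33 between high-dose and untreated animals.

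**Figure D2:**
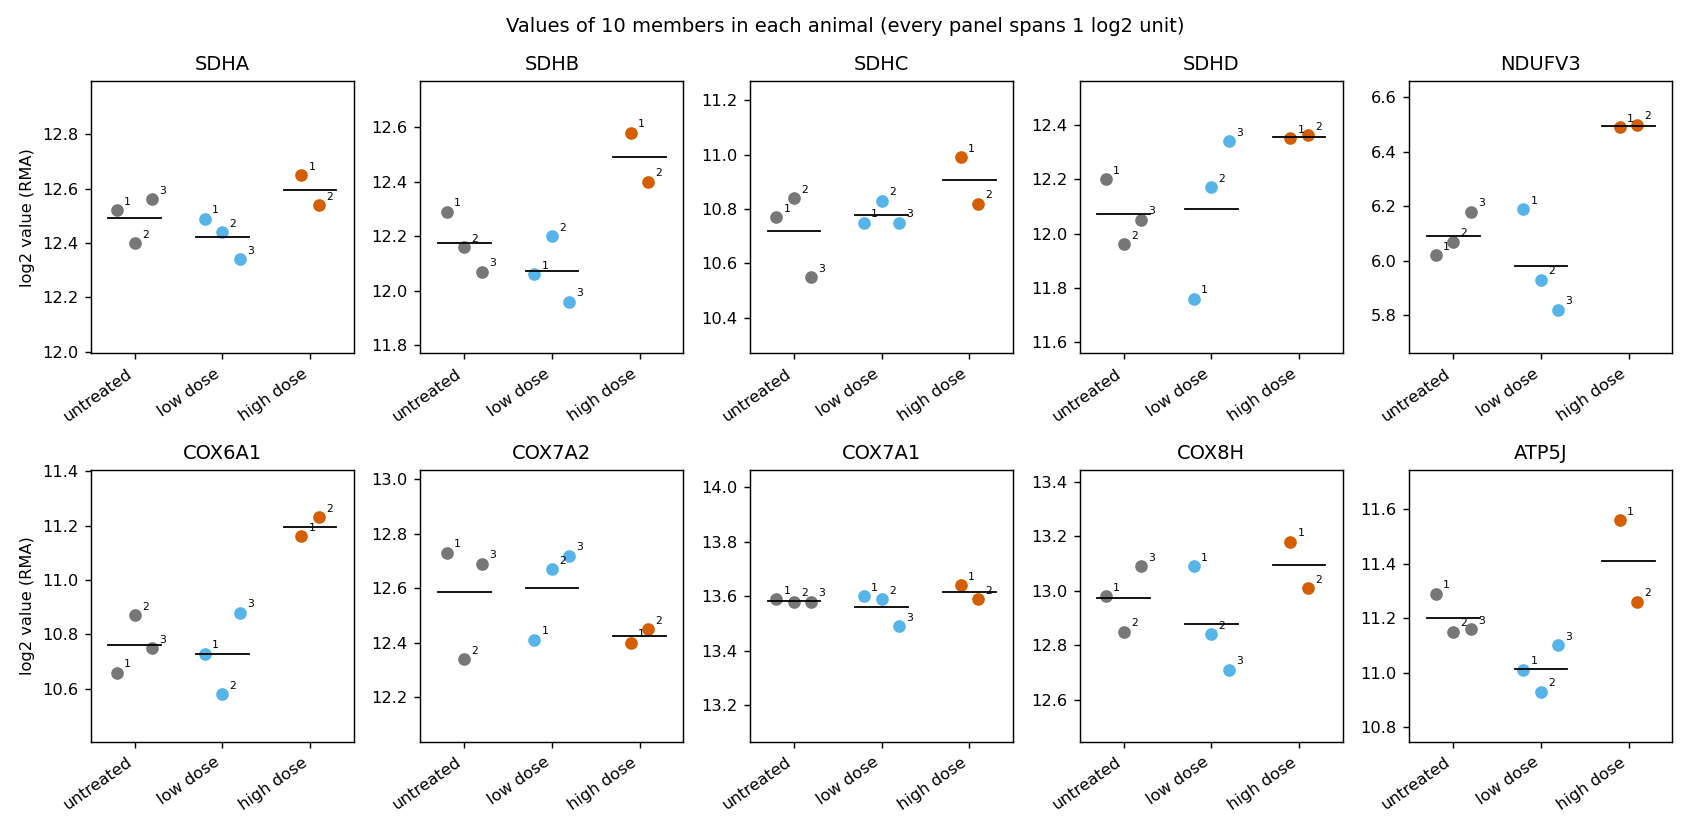
Log2 values of 10 genes in each of the 8 animals, 1 panel for each gene, with untreated, low-dose and high-dose animals from left to right, points numbered by animal and a line at the group mean. Each vertical axis spans 1 log2 unit. Both high-dose points lie above all other points in the panels of SDHB, SDHD, NDUFV3 and COX6A1, and the 8 points of COX7A1 lie between 13.49 and 13.64.

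Complex IV, cytochrome c oxidase, held the subunit with the highest difference between high-dose and untreated animals. COX6A1, which encodes the form of subunit 6A found in most tissues outside heart and skeletal muscle, measured 11.16 and 11.23 in high-dose animals, against 10.66, 10.87 and 10.75 in untreated animals. The groups did not overlap, and the difference of 0.43 ± 0.13 (SE, 95% interval 0.14 to 0.73, limma adjusted p = 0.423) was the highest of the 64. The low-dose animals, at 10.73, 10.58 and 10.88, covered the untreated range, with a difference of −0.03. The muscle form of subunit 6A is not analysed here.

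The other genes of complex IV lay close together across treatments. COX7A1, the heart and muscle form of subunit 7A, measured 13.64 and 13.59 in high-dose animals, against 13.59, 13.58 and 13.58 in untreated animals, a difference of 0.03. COX7A2, the form that most tissues share, measured 12.40 and 12.45 in high-dose animals, against 12.73, 12.34 and 12.69 in untreated animals. Untreated animal 2 was below both high-dose animals, and the difference was −0.16 (95% interval −0.52 to 0.20). COX8H, which the annotation names as the heart form of subunit 8, differed by 0.12 and COX5B, a zinc-binding subunit, by 0.06. NDUFA4 and COX7C differed by 0.03 and 0.02. COX6C measured 13.56 and 13.58 in high-dose animals, against 13.66, 13.63 and 13.68 in untreated animals, which placed the high-dose animals below without overlap, though by 0.09 log2 units only.

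Complex I, NADH dehydrogenase, was split almost evenly at the high dose, with 18 of 32 genes higher and a median difference of 0.03. NDUFV3, which encodes a small accessory protein of the NADH-binding arm, measured 6.49 and 6.50 in high-dose animals, against 6.02, 6.07 and 6.18 in untreated animals. The groups did not overlap, and the difference was 0.41 ± 0.13 (SE, 95% interval 0.10 to 0.71, limma adjusted p = 0.498). The probe set of NDUFV3 was the dimmest of the complex, at the 60th percentile of the array, whereas the next of the complex had a mean of 10.16 (NDUFS6). NDUFB8, an accessory subunit of the membrane arm often used as a marker of assembled complex I, measured 12.75 and 12.61 in high-dose animals, against 12.58, 12.37 and 12.46 in untreated animals. Again the groups did not overlap, but the interval of the difference of 0.21 included 0 (limma adjusted p = 0.712).

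The 5 core subunits of complex I that were measured, those conserved from bacteria, had a median difference of 0.07 at the high dose, and the 27 accessory subunits one of 0.02. NDUFS1, which holds iron-sulfur clusters, differed by 0.09, and NDUFV1, which binds NADH, by 0.07. NDUFS7, at the end of the electron path near coenzyme Q, differed by 0.22, with 12.64 and 12.55 in high-dose animals, against 12.47, 12.22 and 12.43 in untreated animals. NDUFV2 differed by 0.02. The core subunit NDUFS3 had the lowest difference of all 64 genes, at −0.23, with the widest interval, −0.81 to 0.35.

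NDUFS3 was also the gene that varied most. It measured 11.17 and 11.28 in high-dose animals, against 11.74, 11.12 and 11.52 in untreated animals. The low-dose animals measured 10.83, 10.82 and 11.55, a difference of −0.39 (95% interval −0.91 to 0.12) from untreated animals. Low-dose animals 1 and 2 were thus the lowest of the 8, and low-dose animal 3 among the highest. Its other probe sets, with means of 10.88 and 8.45, showed differences of 0.14 and 0.43 at the high dose and of −0.15 and −0.12 at the low dose, so their sign at the high dose was the opposite.

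Complex III, which passes electrons from coenzyme Q to cytochrome c, was read by small subunits only, and both lay close to untreated animals. UQCRB, a subunit near the quinone site, measured 13.61 and 13.50 in high-dose animals, against 13.53, 13.38 and 13.59 in untreated animals, a difference of 0.06. UQCR10 measured 12.79 and 12.75 in high-dose animals, against 12.90, 12.60 and 12.73 in untreated animals, a difference of 0.03. Except for UQCRB in high-dose animal 1, these high-dose values lay within the untreated range, and the large core proteins of the complex are not analysed here.

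In complex V, 11 of 13 genes were higher at the high dose, with a median of 0.06. The F1 part of the enzyme, which includes the catalytic head where ATP is formed, had a median difference of 0.05 over 4 genes. These were ATP5A1, ATP5B, ATP5D and ATP5E. ATP5B, the catalytic beta subunit, measured 13.77 and 13.79 in high-dose animals, against 13.72, 13.68 and 13.75 in untreated animals, a difference of 0.06 without overlap. ATP5A1, the alpha subunit, differed by 0.04. ATP5G1, ATP5G2 and ATP5G3 each encode the same mature protein of the rotating ring and differed by 0.14, 0.30 and 0.02. ATP5G2 measured 11.34 and 10.94 in high-dose animals, against 11.08, 10.65 and 10.82 in untreated animals. High-dose animal 1 stood alone there, and leaving out 1 animal in turn moved the difference between 0.10 and 0.50. ATP5I, a small membrane subunit, had the lowest value of the complex at −0.04.

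The peripheral stalk, which holds the head of ATP synthase still while the ring turns, was the group whose doses lay furthest apart within complex V. Its 4 genes, ATP5F1, ATP5H, ATP5J and ATP5O, had a median difference from untreated animals of −0.15 at the low dose, with all 4 lower, and of 0.07 at the high dose, with all 4 higher. ATP5J, coupling factor 6, measured 11.29, 11.15 and 11.16 in untreated, 11.01, 10.93 and 11.10 in low-dose and 11.56 and 11.26 in high-dose animals. The low-dose animals lay below all others, with a difference of −0.19 (95% interval −0.46 to 0.08) from untreated animals. Between high-dose and low-dose animals ATP5J differed by 0.40 (limma adjusted p = 0.367). ATP5O measured 13.10, 13.16 and 13.10 in low-dose animals, against 13.38, 13.19 and 13.28 in untreated animals, a difference of −0.17. ATP5H measured 12.87, 13.14 and 13.11 in low-dose animals, against 13.20, 13.14 and 13.18 in untreated animals, a difference of −0.13 with the groups just touching at the printed precision. None of the stalk genes passed the test at either dose. The 3′ to 5′ difference of the actin control was highest in the low-dose animals, but that of GAPDH lay within the untreated range, and the part of RNA degradation in the stalk values was not tested.

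The 5 genes that encode no subunit were all higher at the high dose, with a median difference of 0.18. The complex I assembly factors NDUFAF1 and NDUFAF3 differed by 0.33 and 0.31, and NDUFAF2 by 0.03. SDHAF2, which attaches the flavin to SDHA, differed by 0.18, and ATP5S by 0.01. NDUFAF1 measured 6.50 and 6.28 in high-dose animals, against 6.44, 6.04 and 5.72 in untreated animals. High-dose animal 2 lay below untreated animal 1, and by the brightest probe sets the groups were apart in none of the 5 genes. The second ATP5S probe set was almost as bright, with a mean of 9.06 against 9.10. It measured 9.44 and 9.13 in high-dose animals, against 8.68, 9.12 and 9.05 in untreated animals. That was a difference of 0.34 without overlap (limma adjusted p = 0.666). Dimmer probe sets of NDUFAF1, NDUFAF2 and SDHAF2 overlapped, with differences of 0.03, 0.11 and 0.10.

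**Figure D3:**
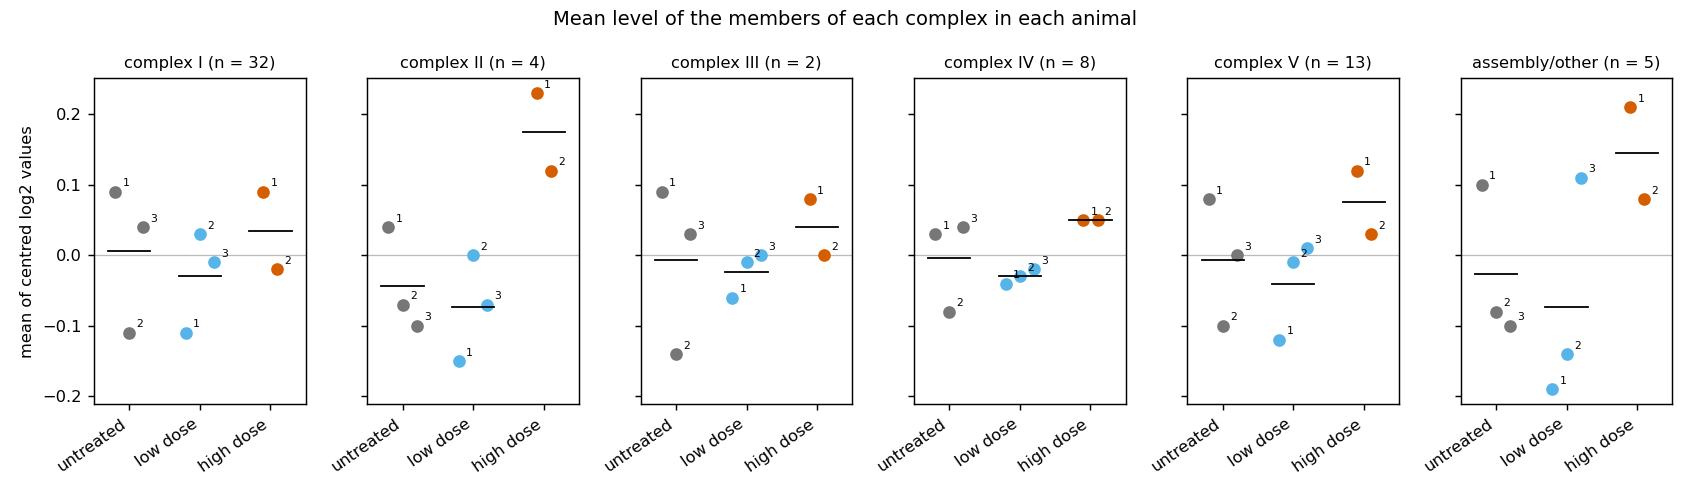
Mean of the centred log2 values of the genes of each complex in each animal, with untreated, low-dose and high-dose animals from left to right, points numbered by animal and a line at the group mean. In complex II the high-dose points, at 0.23 and 0.12, lie above the other 6. In complex IV both, at 0.05, lie just above the highest other animal, at 0.04. There COX6A1 is the only gene with both high-dose values above all untreated values. In complexes I, III and V the high-dose points overlap the untreated ones.

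Low-dose GGF2 was compared with no treatment in the same fit. No gene passed limma's test (smallest adjusted p 0.998), none of the other probe sets did (0%), and none of the 64 had an unadjusted p under 0.05, against 4.5% of all probe sets (2.77% higher and 1.74% lower). The fitted difference was above 0 in 25 of 64 genes (39.1%), against 52% of all probe sets and 38.4% of the probe sets with a mean of at least 10. The median was −0.02 and the range −0.39 (NDUFS3) to 0.11 (NDUFA1, a small membrane subunit of complex I). The count moved with scaling, to 14 of 64 with each array centred on its median and 34 of 64 with renewed quantile normalization. It also moved with single animals, to 12 of 64 without untreated animal 2 and 36 of 64 without untreated animal 1. By complex the medians were −0.01, −0.03, −0.02, −0.03 and −0.02 from complex I to V. The whole 95% interval was within 1.5-fold for 62 of 64 genes, all but NDUFB5 and NDUFS3.

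Genes whose groups did not overlap were then counted. In high-dose against untreated animals, 9 genes (14.1%) lay entirely above and 2 (3.12%) entirely below, against 14.7% and 12% of all probe sets. Those above were ATP5B, ATP5H, COX6A1, NDUFA12, NDUFB8, NDUFS7, NDUFV3, SDHB and SDHD, and those below COX6C and NDUFA7, an accessory subunit of complex I. In low-dose against untreated animals, 0 genes lay above and 4 (6.25%) below, against 5.23% and 3.87% of all probe sets. These were ATP5H, ATP5J, ATP5O and COX6C.

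The comparison of the doses with each other shared its high-dose animals with the first comparison and its low-dose animals with the second. Again no gene passed limma's test, with a smallest adjusted p of 0.284 for NDUFV3, whereas 6 of 23999 probe sets did (0.025%). The unadjusted p was under 0.05 for 4 genes (6.25%), namely NDUFV3, COX6A1, SDHB and ATP5J, all higher at the high dose, against 4.38% of all probe sets higher, 5.85% lower and 10.2% in either direction. Their differences were 0.51, 0.47, 0.42 and 0.40 log2 units. The fitted difference was above 0 in 47 of 64 genes (73.4%), against 51.1% of all probe sets and 57.4% of those with a mean of at least 10, with a median of 0.08. This count was 57 with each array centred on its median, 39 with renewed quantile normalization, 37 with the covariate for untreated animal 2 and low-dose animal 1, and 38 without high-dose animal 1. High-dose values lay entirely above low-dose values in 15 genes (23.4%), against 13.2% of all probe sets, and entirely below in ATP5I and NDUFB1 (3.12%), against 13%. With both doses averaged against untreated animals, 0 of 64 genes passed, 0 had an unadjusted limma p under 0.05 (4.83% of all probe sets, 2.43% higher and 2.41% lower) and the median was 0.01.

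Single animals shaped the values of many of these genes together. Untreated animal 2 had the lowest value of its group in 53 of 64 genes (82.8%), against 36.6% of all probe sets and 49.4% of those with a mean of at least 10. Low-dose animal 1 was lowest of its group in 36 genes (56.2%), close to the 52.3% of bright probe sets. High-dose animal 1 exceeded high-dose animal 2 in 45 genes (70.3%), against 49.8% of all probe sets. Averaged over all 64 centred genes, the untreated animals stood at 0.08, −0.10 and 0.01, the low-dose animals at −0.11, 0 and 0 and the high-dose animals at 0.11 and 0.02. The untreated animals thus lay further apart from each other than the averages of the 3 groups did.

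**Figure D4:**
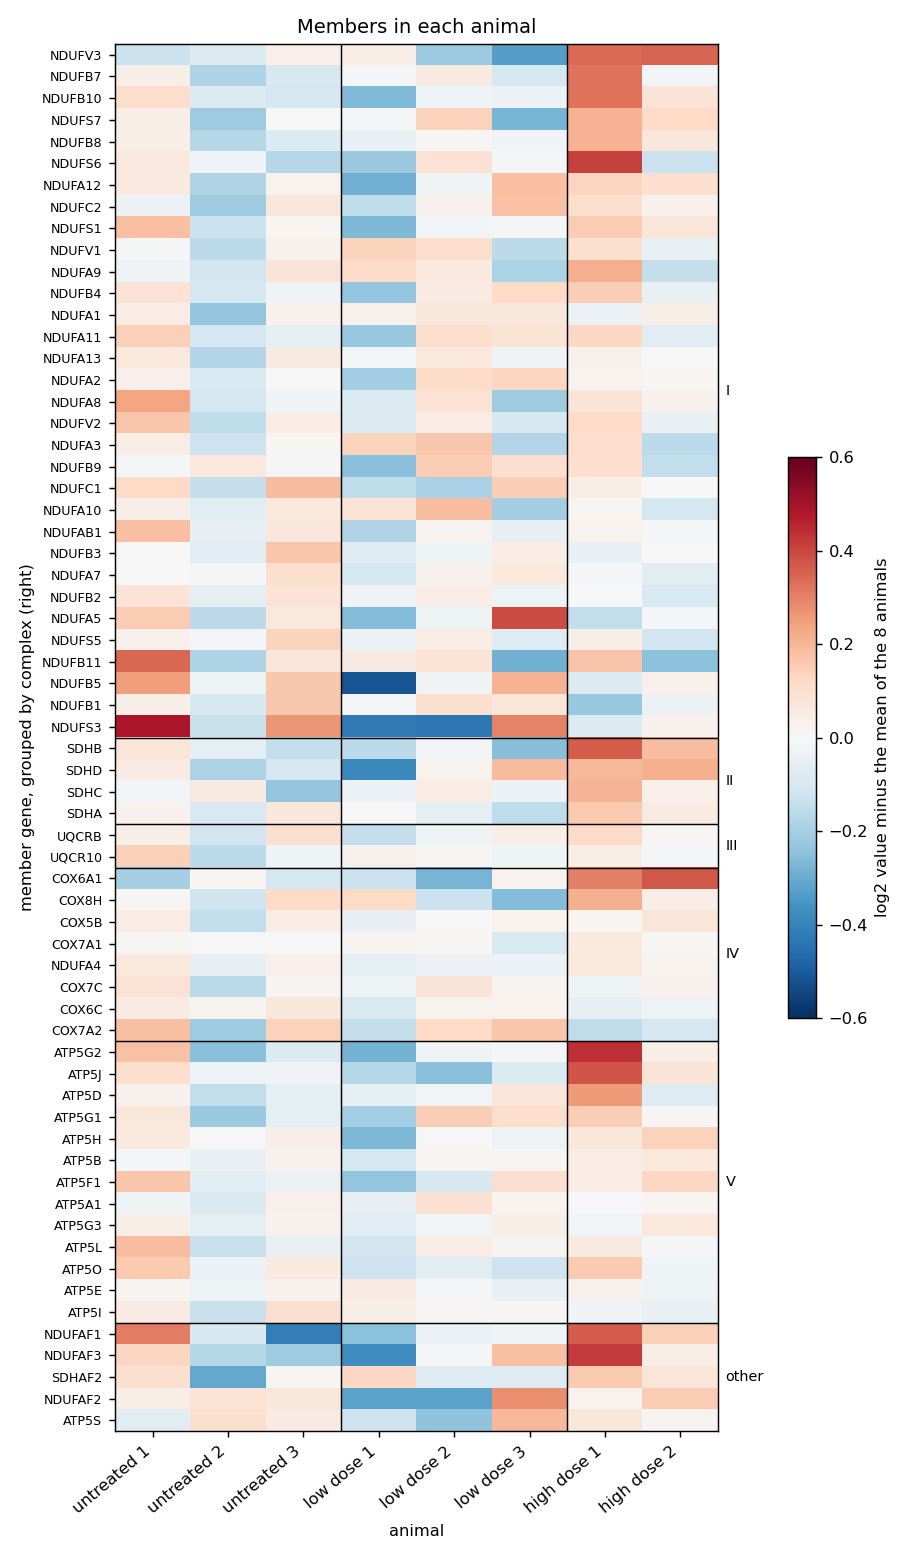
Log2 value of each gene in each animal minus that gene's mean over the 8 animals, on a colour scale from −0.6 to 0.6, with genes grouped by complex and ordered by their difference at the high dose. The column of untreated animal 2 is blue in most rows. Both high-dose columns lie above 0 for NDUFV3, COX6A1 and the 4 SDH genes, but SDHA and SDHC in high-dose animal 2 are close to white.

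The difference at the high dose also varied with the brightness of the probe set. The 6 genes with a mean below 10 had a median difference of 0.24, the 19 between 10 and 12 one of 0.07, the 23 between 12 and 13 one of 0.03 and the 16 at 13 or above one of 0.03. Over all probe sets in the same ranges the medians were 0.02, 0.01, −0.02 and 0. Beside the 64 probe sets used, 18 further probe sets belong to 15 of the genes. Of these, 15 lay above the lower quartile of the arrays, taken as close to background, and 11 of the 15 were higher at the high dose. Besides SDHB and NDUFS3, a probe set of NDUFV2, an iron-sulfur subunit of complex I, departed from the brighter one by over 0.5 log2 units. With a mean of 7.52 it differed by 0.49 between low-dose and untreated animals, where the brightest NDUFV2 probe set differed by −0.06. The part of probe brightness in these differences was not tested.

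**Figure D5:**
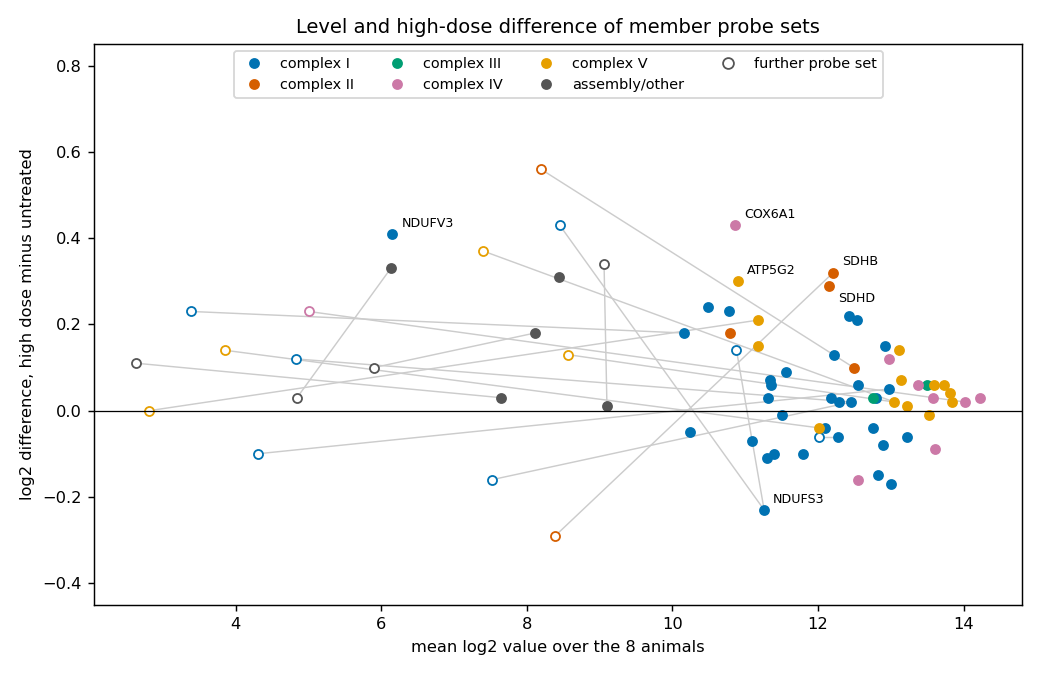
Difference between high-dose and untreated animals in log2 units (vertical) against the mean log2 value over the 8 animals (horizontal) for the 64 genes (filled points, coloured by complex) and their 18 further probe sets (open points, joined to their gene by a line). Points at a mean of 13 or above lie between −0.09 and 0.14, while the lines of SDHA, SDHB and NDUFS3 join values that are far apart.

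Genes that feed, build or serve the chain were measured on the same arrays, and none of their listed members passed limma's test in high-dose against untreated animals. Without adjustment, a p under 0.05 was found for 3.61% of all probe sets with a higher value and 7.97% in either direction. It was found for 2 of 5 electron carriers, the electron-transfer flavoprotein subunit ETFB at 0.34 and ETFDH, which delivers electrons from fatty acid oxidation to coenzyme Q, at 0.42, and the list's median was 0.13. Coenzyme Q synthesis had a median of 0.22 over 4 of 14 genes measured and no unadjusted call. Citric acid cycle and pyruvate dehydrogenase genes had a median of 0.08, with 15 of 16 above 0 and no unadjusted call. Assembly factors outside the prefixes had a median of 0.06 over 14 of 41 genes, also with no unadjusted call, and genes of cristae and uncoupling one of 0.17 over 8 of 14.

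Larger differences lay outside the subunits. In the list of ATP export and the phosphocreatine shuttle, 9 of 10 genes were above 0, with a median of 0.16, and 2 had an unadjusted p under 0.05, both higher, beside the same 3.61% of all probe sets. SLC25A5, an ADP/ATP carrier, measured 8.89 and 8.83 in high-dose animals, against 7.56, 8.33 and 7.61 in untreated animals, a difference of 1.03 ± 0.25 (SE, limma adjusted p = 0.383). SLC25A3, the mitochondrial phosphate carrier, differed by 0.36. Among regulators 8 of 23 genes were measured, with a median of 0.18 and 3 unadjusted calls, all higher, beside the 3.61% of all probe sets that were higher at this threshold. SIRT3, a mitochondrial deacetylase, measured 8.67 and 8.49 in high-dose animals, against 7.97, 7.88 and 7.81 in untreated animals. PPARGC1A, a coactivator of mitochondrial genes, measured 10.63 and 10.40 in high-dose animals, against 9.38, 9.87 and 9.06 in untreated animals. In both genes the groups did not overlap, and the differences were 0.69 (limma adjusted p = 0.202) and 1.08 (adjusted p = 0.333). PPARA, a nuclear receptor of fatty acid metabolism, had a dim probe set with a mean of 3.97 and was the other call, at 0.44. SIRT3 and SLC25A5 were also higher in low-dose than in untreated animals, by 0.37 and 0.65 (limma adjusted p = 0.998 for each). PPARGC1A, PPARA and SLC25A3 differed there by −0.16, −0.20 and −0.03. YY1, a transcription factor, was the 1 measured regulator that was lower, with 9.92 and 10 in high-dose animals, against 10.38, 10.18 and 10.25 in untreated animals. Its groups did not overlap either, with a difference of −0.31 (limma adjusted p = 0.626). TFAM, which maintains mitochondrial DNA, differed by 0.04.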

How the data were processed

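Trizol RNA was made into biotinylated cRNA, per the labels' protocols. The deposited values are log2 intensities of 24123 probe sets on 8 arrays, and the submitters' processing notes name RMA and Partek 6.6. RMA equalises the distributions of the arrays, so a change shared by most genes would be removed. Arrays carry no read depth, and their number limits the precision.

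Groups follow the treatment in the labels, and each array is another pig. After 124 control probe sets were left out, the values of 23999 probe sets were fitted with limma 3.58.1 (R 4.3.3), using 3 group means, with 5 residual and 3.504 prior degrees of freedom, and 4 contrasts were drawn. Benjamini-Hochberg adjustment ran over all probe sets. Differences are log2 values with moderated standard errors. The fit was run on simulated data with added differences larger than any seen in the subunit genes. That run does not speak to differences as small as theirs. Symbols came from the platform annotation, which can be old: 10069 probe sets carried 1 symbol, and those with several named no gene, which left out 4 with a subunit symbol.

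Summed marker levels are log2 of summed linear values. Genes named were those with an unadjusted p under 0.05 against untreated animals, the highest and lowest of each complex, preset core subunits and tissue isoforms, genes that are no subunits and genes whose probe sets differ; others, among them the stalk genes, ATP5G3, NDUFS7, COX6C and genes of the other lists, were singled out after their values were seen. The members and all gene lists were chosen with earlier results of these data known, so no list was tested. The alternatives were other variance priors, a filter on dim probe sets, other scalings, fits of only the groups compared and array weights. Further ones were other choices of probe set and membership, and leaving out each array in turn. Untreated animal 2 and low-dose animal 1, whose tag numbers in the sample titles are neighbours, were also given a covariate or left out. The 2 high-dose animals carry neighbouring tag numbers too, as do untreated animals 1 and 3. Any part of tag number in the high-dose values therefore cannot be told apart from the dose.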

Additional observations from a re-analysis of the deposited data

How the results depend on the processing

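No gene of the 64 passed the adjusted threshold in any of the 4 comparisons under any alternative fit. At an unadjusted limma p under 0.05 as the threshold, 3 passed in high-dose against untreated animals and 4 in high-dose against low-dose animals. The first of these counts was 1 without high-dose animal 1, 2 without untreated animal 2 or 3 and 4 at most. The smallest adjusted p over all fits was 0.194 in high-dose against untreated animals, 0.797 in low-dose against untreated animals and 0.14 in high-dose against low-dose animals. The median difference ran from 0 to 0.09, −0.06 to 0.01 and 0.02 to 0.13 in these comparisons, and from −0.03 to 0.05 for both doses together. At the low dose its sign turned to 0.01 without untreated animal 1. The complex II median at the high dose ran from 0.16 to 0.28, with all 4 genes higher in 17 of 17 settings. With the mean of each gene's probe sets, however, SDHB was higher by 0.01 only. The unadjusted p was under 0.05 in 17 of 18 settings for COX6A1, 16 of 18 for NDUFV3 and 11 of 18 for SDHB, whose difference ran from 0.23 to 0.40 with single animals left out. Of 1080 values of 30 named genes, 80 changed sign, none of them past the adjusted threshold. The causes were not tested. No paired analysis was possible because the labels hold no replicate numbers. With 2 high-dose animals, 1 of them left out leaves a lone sample assumed to vary like the other groups.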
